A study of Mus musculus with 11 samples.

Results

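Base excision repair, single-strand break repair, nucleotide excision repair, mismatch repair and direct reversal mend damaged or mispaired bases, and 35 of their genes were followed in KP1 cells after irradiation. The genes were chosen by name from these pathways and not by their values, but with earlier results of these data known. They are 35 of the 35056 genes to which the sequenced transcripts were assigned. KP1 is a mouse small cell lung cancer (SCLC) line, mutant for *Rb* and *p53* and grown in suspension in RPMI-1640 with serum. Bulk RNA sequencing covered 2 untreated control libraries (replicates 2 and 3) and 3 libraries of cells collected 24 h after 5 Gy (replicates 1, 2 and 3). All 5 libraries come from the same line, and the labels do not say whether the replicates were separate cultures, so the p values below measure the spread between these samples, which may be technical. The single-cell samples of the series were not analysed here.

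In base excision repair a glycosylase removes a damaged base, APEX1 cuts the backbone at the empty site, and a polymerase and a ligase fill and seal the gap. PARP1 and XRCC1 serve the same late steps at single-strand breaks. Nucleotide excision repair removes a short stretch around bulky lesions such as those of ultraviolet light. It starts from XPC and the DDB1-DDB2 complex anywhere in the genome, or from ERCC6 and ERCC8 at a stalled RNA polymerase. Mismatch repair corrects replication errors through pairs of MutS proteins, which bind the mismatch, and MutL proteins, which act next. Ionizing radiation oxidises bases and breaks strands, and base excision and single-strand break repair act on such lesions. The comparison asks how the transcripts of these pathways stood in SCLC cells a day after the dose.

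The libraries held 21185956 to 31036317 reads. Neuroendocrine markers matched the label of the line. *Chga* had 292 to 472 CPM (reads scaled for depth, after TMM scaling between libraries) across the 5 libraries, whereas *Dcn*, *Col1a2*, *Lyz2*, *Cd3e* and *Cdh5*, markers of fibroblasts, leukocytes and endothelium, each stayed at or below 0.140 CPM. *Insm1*, *Syp*, *Ncam1*, *Uchl1* and *Dll3*, also neuroendocrine, each had at least 35.7 CPM in every library. The other markers of those cells reached 1.91 CPM at most, apart from *Pdgfra*, listed for fibroblasts, with 94.3 to 130 CPM. The libraries differed in the transcripts they sampled, with a mean transcript length, weighted by reads, of 5463 and 4729 bases in control replicates 2 and 3 and of 3715, 3625 and 3998 bases in irradiated replicates 1, 2 and 3. Control replicate 2 stood apart, at −86.9 on a first principal component that held 61.6% of the variance, with control replicate 3 at −31.4 and the irradiated libraries between 20.4 and 49.9.

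Of the 35 genes, 34 had enough reads to be tested, and 7 of these passed an adjusted p of 0.05 in edgeR (quasi-likelihood test, Benjamini-Hochberg adjusted across the 14106 genes that could be tested). *Apex1*, *Nthl1* and *Ung* were higher after irradiation, and *Ercc6*, *Lig1*, *Lig3* and *Neil3* were lower. The 7 genes make up 20.6% of the repair genes, against 25.6% of all genes tested. By direction, 8.82% of the repair genes were higher, against 12.7% of all genes, and 11.8% were lower, against 13.0%. The repair genes were thus called at a share a little under that of all genes. In bulk RNA, fewer cells in a given state and less RNA per cell cannot be told apart. None of the 34 passed the study's own thresholds, a log2 fold change beyond 1.5 in either direction with an adjusted p under 0.05, which 3.53% of all genes did (1.63% higher and 1.90% lower). At an unadjusted p under 0.05 there were 13 repair genes, or 38.2% of the 34 against 41.0% of all genes. DESeq2 called 3 repair genes higher and 5 lower at an adjusted p under 0.05, and 2364 and 2143 of the 20526 genes fitted.

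Counted without a test, 8 of the 34 repair genes had all 3 irradiated libraries above both controls in CPM (23.5%, against 30.1% of all genes), and 13 had all 3 below both controls (38.2%, against 29.3%). The 8 were *Ung*, *Nthl1*, *Mpg*, *Polb*, *Apex1*, *Rad23b*, *Ercc8* and *Xpa*. The 13 were *Neil2*, *Neil3*, *Tdg*, *Parp1*, *Lig1*, *Lig3*, *Aptx*, *Ddb1*, *Ercc5*, *Ercc6*, *Msh3*, *Msh6* and *Mlh3*. The remaining 13 overlapped between the groups. The median log2 fold change over the 34 was 0.07, and over all genes it was 0.02.

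**Figure D1:**
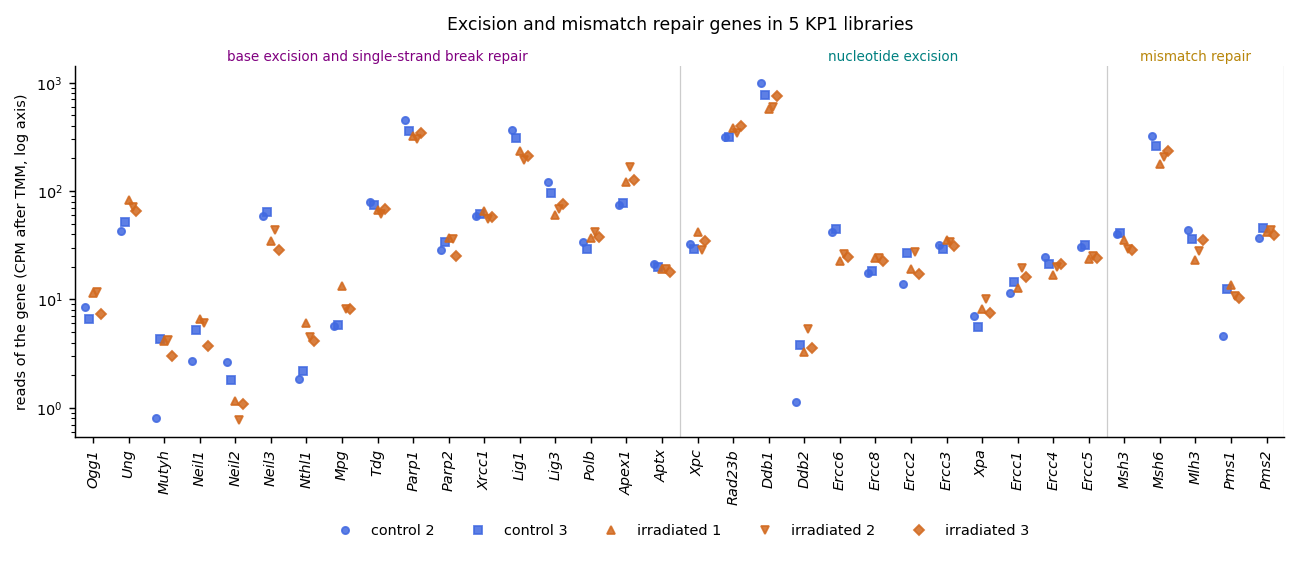
Reads of the 34 tested repair genes in each library, as CPM after TMM scaling on a log axis, grouped by pathway, with control libraries in blue and irradiated libraries in orange. Levels run from about 1 CPM for *Neil2* to 997 CPM for *Ddb1*, and most genes shifted little next to these differences between genes.

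The 9 glycosylases held changes in both directions, with 2 higher (22.2%, against 12.7% of all genes), 1 lower (11.1%, against 13.0%) and 6 that did not pass. *Ung*, which removes uracil from DNA and lies on chromosome 5 of GRCm38 from 114130386 to 114139323, had 42.4 and 52.1 CPM in the controls and 83.4, 71.5 and 65.4 CPM in irradiated replicates 1, 2 and 3. Its log2 fold change was 0.64 ± 0.173 (SE), with an adjusted p of 0.0316 by edgeR. *Nthl1*, which removes oxidised pyrimidines and lies on chromosome 17 from 24632680 to 24638837, had 1.86 and 2.18 CPM in the controls and 6.05, 4.48 and 4.12 CPM after irradiation. All irradiated libraries lay above both controls for these 2 genes, and the *Nthl1* difference, 1.27 ± 0.364 (adjusted p = 0.0368 by edgeR), was the largest rise among the repair genes, from 53 to 152 reads per library.

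*Neil3* moved the other way. Its product removes oxidised bases, mainly from single-stranded DNA, and opens crosslinks at replication forks, and the gene is known to be expressed in dividing cells. On chromosome 8 from 53586867 to 53639065, it had 58.6 and 64.3 CPM in the controls and 34.3, 43.4 and 28.7 CPM after irradiation, a log2 fold change of −0.79 ± 0.192 (SE; adjusted p = 0.0223 by edgeR). The groups did not overlap. *Neil3* was also the most abundant glycosylase in the controls per transcript length, at 109 and 91.7 TPM (abundance scaled for length and depth), next to 59.0 and 54.7 TPM of *Tdg*, although 45.4 and 57.4 TPM of it lay in the coding transcript.

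The related *Neil2* had 0.38 to 1.47 TPM, the lowest of this pathway in 4 of the 5 libraries (*Mutyh* was lower in control replicate 2, at 1.22 TPM). It had 2.66 and 1.80 CPM in the controls and 1.15, 0.776 and 1.09 CPM after irradiation, from 17 to 76 reads, with a log2 fold change of −1.14 ± 0.497 and an adjusted p of 0.121 by edgeR. *Neil1* had 2.70 and 5.22 CPM in the controls and 3.75 to 6.65 CPM after irradiation, and the groups overlapped. The oxidised-guanine glycosylase *Ogg1* (log2 fold change 0.43) and its partner *Mutyh* (0.55), which removes adenine paired with the damaged guanine, did not pass either. *Mutyh* had 0.805 CPM in control replicate 2 and 2.99 to 4.35 CPM in the other 4 libraries, so its value rests on that control, and without control replicate 2 the log2 fold change was −0.19.

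*Mpg*, the alkyladenine glycosylase, had 5.64 and 5.82 CPM in the controls and 13.3, 8.13 and 8.12 CPM after irradiation, a log2 fold change of 0.78 with an adjusted p of 0.0877 by edgeR. The groups were separate, but its main transcript shares 76.8% of its bases with *Nprl3* on the opposite strand, and whether the counting used strand is not given in the sources used here. *Tdg*, which removes thymine and uracil paired with guanine, had 79.2 and 74.9 CPM in the controls and 61.7 to 68.5 CPM after irradiation (log2 fold change −0.23, adjusted p = 0.237 by edgeR). The value of *Tdg* is uncertain, because the processed pseudogene *Gm9855*, 99.2% identical over 1194 bases, was assigned 12728 reads over the 5 libraries, more than the 9160 of *Tdg* itself.

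Among the 8 genes that process the cut strand, fill it and ligate it, *Apex1* was higher and both ligases were lower. That is 12.5% higher and 25.0% lower, against 12.7% and 13.0% of all genes. *Apex1*, the main nuclease at abasic sites, lies on chromosome 14 from 50924968 to 50927139. It had 74.2 and 77.9 CPM in the controls and 122, 168 and 128 CPM after irradiation, 1.83 times the control mean. All irradiated libraries lay above both controls, and the log2 fold change was 0.87 ± 0.180 (SE; adjusted p = 0.0137 by edgeR). By TPM, *Apex1* had 165 and 179 TPM in the controls, below *Lig1* (309 and 262 TPM) and *Parp1* (233 and 204 TPM), and led base excision repair after irradiation at 228, 299 and 252 TPM. Its main transcript shares 70.8% of its bases with *Pip4p1* on the opposite strand. *Pip4p1* had 25.2 and 32.5 CPM in the controls and 36.3 to 54.9 CPM after irradiation (log2 fold change 0.65, adjusted p = 0.0565 by edgeR), and its part in the *Apex1* value was not tested.

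*Lig1*, the replicative ligase that also seals long-patch repair, lies on chromosome 7 from 13277283 to 13311433. It had 365 and 310 CPM in the controls and 234, 193 and 211 CPM after irradiation, a log2 fold change of −0.67 ± 0.158 (SE; adjusted p = 0.0211 by edgeR). *Lig3*, the partner of XRCC1 and the ligase of mitochondria, lies on chromosome 11 from 82781108 to 82804274 and had 121 and 96.8 CPM in the controls and 60.4, 68.3 and 76.3 CPM after irradiation. Both ligases thus lay below both controls in every irradiated library, and the *Lig3* difference was −0.67 ± 0.167 (adjusted p = 0.0243 by edgeR). Some 30.2% of the main *Lig3* transcript lies opposite *Rffl*, which had 9.80 to 13.2 CPM and did not pass the test.

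The other 5 genes of these steps did not pass the test. All irradiated libraries lay below both controls for *Parp1* and *Aptx* (29.3% of all genes did). They lay above both for *Polb* (30.1% of all genes did), and the groups overlapped for *Xrcc1* and *Parp2*. *Parp1*, whose product senses strand breaks, had 449 and 357 CPM in the controls and 303 to 346 CPM after irradiation (log2 fold change −0.31, 95% interval −0.69 to 0.06). *Xrcc1*, the scaffold of single-strand break repair, had 59.0 and 61.4 CPM in the controls and 55.2 to 65.3 CPM after irradiation, and its log2 fold change was −0.02 with an interval of −0.35 to 0.32. *Polb*, the gap-filling polymerase, was at 0.30 (adjusted p = 0.193 by edgeR), *Parp2* at 0.07 and *Aptx*, which clears stalled ligation ends, at −0.14. The interval of *Xrcc1* leaves out changes beyond 1.5 on the log2 scale, and so do those of the other 4 genes.

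**Figure D2:**
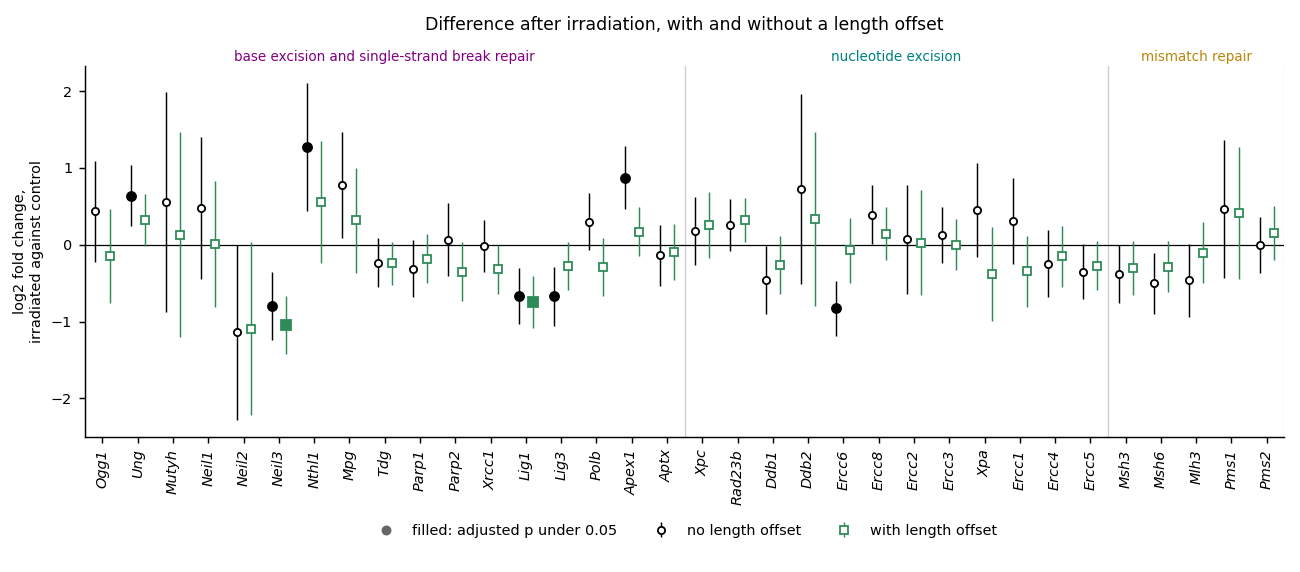
Log2 fold change of each of the 34 tested repair genes in irradiated against control libraries, with 95% intervals, without (black circles) and with (green squares) an offset for transcript length, filled where the adjusted p is under 0.05. Of the 7 genes that passed without the offset, *Lig1* and *Neil3* are filled in both.

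In nucleotide excision repair 1 of 12 genes passed (8.33%, against 25.6% of all genes), the transcription-coupled factor *Ercc6*. The median log2 fold change over the 12 was 0.15. *Ercc6*, which encodes CSB, a remodeller recruited to stalled RNA polymerase, lies on chromosome 14 from 32513521 to 32580990. It had 41.9 and 44.6 CPM in the controls and 22.5, 26.2 and 24.5 CPM after irradiation. The groups were well apart relative to their spread, with a log2 fold change of −0.83 ± 0.156 (SE; adjusted p = 0.0114 by edgeR). Its transcripts, at a mean of 7789 bases, were the longest of all the repair genes. *Ercc8*, which encodes the partner CSA, had 17.5 and 18.4 CPM in the controls and 24.2, 24.0 and 22.6 CPM after irradiation (log2 fold change 0.39, adjusted p = 0.120 by edgeR), so the irradiated libraries lay above both controls without passing the test.

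Of the 4 genes of damage recognition, none passed. *Xpc*, the sensor of global repair, had 32.5 and 29.2 CPM in the controls and 41.6, 28.6 and 34.3 CPM after irradiation, with a log2 fold change of 0.17 (95% interval −0.27 to 0.62). *Ddb2*, which binds ultraviolet lesions and is a known target of p53 in human cells, was the least abundant gene of this pathway by TPM. It had 1.12 and 3.79 CPM in the controls, from 32 and 101 reads, and 3.27, 5.34 and 3.53 CPM after irradiation. The groups overlapped, and the log2 fold change of 0.72 had an interval of −0.51 to 1.96 and was 0.11 without control replicate 2. Some 23.6% of the main *Ddb2* transcript lies opposite *Acp2*, which was assigned 4847 reads over the 5 libraries, against 429 of *Ddb2*. *Acp2* had a log2 fold change of −0.53 (adjusted p = 0.0707 by edgeR), and its part in the *Ddb2* value was not tested. *Ddb1*, the partner of *Ddb2* and an adaptor of CUL4 ubiquitin ligases, was the most abundant in the controls, at 468 and 371 TPM. *Ddb1* had 997 and 766 CPM in the controls and 576, 593 and 760 CPM after irradiation (log2 fold change −0.46, adjusted p = 0.114 by edgeR), with irradiated replicate 3 close to control replicate 3. *Rad23b*, the stabilising partner of XPC, had 315 and 313 CPM in the controls and 384, 346 and 396 CPM after irradiation (0.25, adjusted p = 0.231 by edgeR).

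Of the 3 genes in the set that open or verify the lesion, none passed. The TFIIH helicases *Ercc2* and *Ercc3* had log2 fold changes of 0.07 and 0.13, and *Xpa*, which verifies the lesion, of 0.45 with an interval of −0.16 to 1.07. Among the incision nucleases *Ercc5* (XPG) had 30.4 and 31.7 CPM in the controls and 23.9, 25.0 and 24.2 CPM after irradiation, a log2 fold change of −0.35 that did not pass (adjusted p = 0.127 by edgeR). *Ercc1* and *Ercc4*, which form the other nuclease, were at 0.31 and −0.25, and their groups overlapped.

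None of the 5 mismatch repair genes in the set passed. However, 3 of the 5 lay below both controls in every irradiated library, and the median log2 fold change was −0.38. Such separation was found in 29.3% of all genes and in 55.9% of those of 3500 bases and over, where the median was −0.41, and 4 of the 5 genes are of that length. *Msh6*, the MutS partner for single mismatches and the most abundant of the 5 by TPM, had 322 and 262 CPM in the controls and 179, 205 and 234 CPM after irradiation. Its log2 fold change was −0.50 ± 0.173 (SE) with an adjusted p of 0.0637 by edgeR and 0.0300 by DESeq2. *Msh3*, the MutS partner for insertion loops, was at −0.38 (adjusted p = 0.116 by edgeR), and the MutL gene *Mlh3* at −0.47 (adjusted p = 0.128). *Pms2*, which carries the MutL nuclease, had 37.2 and 45.6 CPM in the controls and 41.8, 43.4 and 39.1 CPM after irradiation, with an interval of −0.36 to 0.36. *Pms1*, with 2.99 to 11.3 TPM, had 4.55 CPM in control replicate 2, 12.3 CPM in control replicate 3 and 10.4 to 13.7 CPM after irradiation. Its log2 fold change of 0.46 had an interval of −0.43 to 1.36.

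*Mgmt*, which removes alkyl groups from guanine without excision and is the only gene of direct reversal in the set, was at the limit of detection. It had 2 and 0 reads in the controls and 3, 0 and 0 reads in irradiated replicates 1, 2 and 3, all at or under a detection floor of 3 reads, so no fold change is given.

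The sign of these differences followed transcript length. All 11 repair genes with a mean transcript under 2000 bases had a log2 fold change above 0 (median 0.48), and 2 of the 13 with transcripts of 3500 bases and over did (median −0.38). The same was so of all genes: 79.2% of those under 2000 bases had a log2 fold change above 0 (median 0.57), and 20.5% of those of 3500 bases and over (median −0.41). *Nthl1* (1080 bases) and *Apex1* (1157 bases) are among the shortest of the repair genes and *Lig3* (5104 bases) and *Ercc6* among the longest. The mean length of the sampled transcripts differed between the groups, as given above, and whether this arose in the cells or in the libraries cannot be told apart here.

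**Figure D3:**
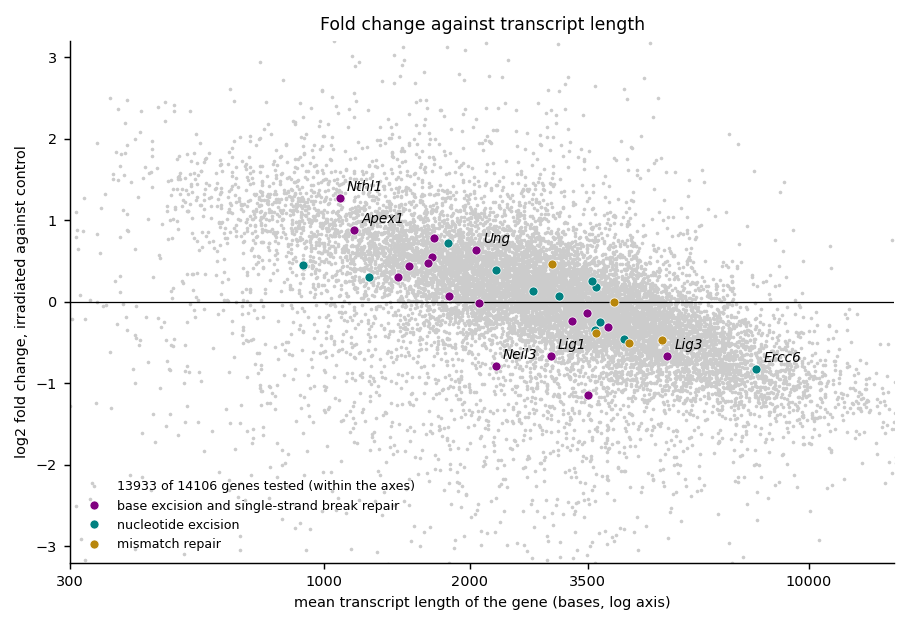
Log2 fold change in irradiated against control libraries against mean transcript length (log axis), for 13933 of the 14106 genes tested (gray, with 173 outside the axes) and for the 34 repair genes colored by pathway, with the 7 that passed named. The repair genes follow the falling band of all genes, and *Neil3* and *Lig1* lie below the median of 0.13 of all genes from 2000 to under 3500 bases.

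With the trend of each library along transcript length taken out as an offset, 2 repair genes passed, both lower, against 3.69% of all genes tested (1.52% higher and 2.17% lower). *Neil3* then had a log2 fold change of −1.05 ± 0.164 (SE; adjusted p = 0.0316 by edgeR) and *Lig1* of −0.74 ± 0.148 (adjusted p = 0.0424 by edgeR). *Ercc6* moved to −0.07, *Lig3* to −0.28, *Apex1* to 0.17, *Ung* to 0.33 and *Nthl1* to 0.55, and none of these 5 passed. The median over the 34 became −0.12. The offset takes out any trend with length, whatever its source. Under an offset for the effective length of each gene's transcripts in each library instead, *Apex1* (0.95) and *Ung* (0.72) passed as higher. *Lig1* (−0.81), *Lig3* (−0.90) and *Neil3* (−1.36) passed as lower, while *Nthl1* (1.35) and *Ercc6* (−0.43) did not pass. In that fit 1470 of 14106 genes were higher and 1389 lower.

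The 7 calls also depended on which controls were kept, and most on control replicate 2, the library that stood apart. Without control replicate 2 no repair gene passed, and the log2 fold changes were 0.86 for *Apex1*, 1.18 for *Nthl1*, 0.51 for *Ung*, −0.85 for *Ercc6*, −0.52 for *Lig1*, −0.48 for *Lig3* and −0.84 for *Neil3*, each in the direction seen with all libraries. In that comparison 1 control is left, its spread is taken to be that of the irradiated group, and 95 and 175 genes of all passed as higher and lower. Without control replicate 3, 5 repair genes were higher and 4 lower. *Ddb2* (1.86), *Mutyh* (2.24) and *Pms1* (1.37) then passed, each of which had its lowest level in control replicate 2, as did *Msh6* (−0.63, adjusted p = 0.0468 by edgeR), and *Nthl1* and *Neil3* no longer did. *Apex1* and *Ercc6* passed whichever irradiated library was left out. The calls of *Ung*, *Lig3*, *Neil3* and *Nthl1* were lost without irradiated replicate 1, those of *Ung*, *Lig1*, *Lig3* and *Nthl1* without replicate 2, and those of *Lig1* and *Nthl1* without replicate 3.

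Most repair genes are read as several transcripts. The share of a gene's TPM in its protein-coding transcripts was compared within each library, which needs no scaling between libraries. The transcripts of a gene differ in length, and no length offset was applied here. The part of the length difference between libraries in the coding share was not tested. Of 29 repair genes with coding and other transcripts, 14 had this share above both controls in all irradiated libraries (48.3%, against 28.6% of 9974 such genes), and 1, *Aptx*, had it below (3.45%, against 4.61%). The median share over the 29 was 52.9% and 67.4% in control replicates 2 and 3 and 80.6%, 76.6% and 73.1% in the irradiated libraries. Over all 9974 genes it was 90.1% and 87.6% in the controls and 92.4% to 95.3% after irradiation. For 1 gene alone, with 2 and 3 libraries, the exact permutation test (two-sided) reaches 0.1 at the lowest, so no gene can pass on its own.

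In *Mpg* the coding share was 52.9% and 58.1% in the controls and 95.7%, 84.1% and 87.6% after irradiation (exact permutation p = 0.1, the smallest possible). *Xpa* went from 30.9% and 42.7% in the controls to 81.9%, 76.6% and 73.1% after irradiation, and *Xrcc1* from 78.7% and 73.2% to 93.8%, 91.0% and 88.5%. For total reads of *Xpa* and *Xrcc1* the log2 fold changes were 0.45 and −0.02, and neither passed the test. *Polb* has 2 transcripts, and the one annotated as a target of nonsense-mediated decay, of 3354 bases, received 204 and 176 reads in the controls and 13.9, 41.8 and 46.4 reads after irradiation. When the 1201-base coding transcript of *Polb* was counted on its own, and likewise for the other genes, *Polb* and *Mpg* passed as higher. Their log2 fold changes were 0.55 (adjusted p = 0.0467 by edgeR) and 1.15 (adjusted p = 0.0396 by edgeR). *Msh6* passed as lower (−0.56, adjusted p = 0.0463 by edgeR). That fit had no length offset, and 1599 of 13250 genes were higher in it and 1794 lower. With all transcripts counted and the length offset, *Polb* was at −0.29, *Mpg* at 0.32 and *Msh6* at −0.29, and none of them passed.

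The coding share of *Neil3* was 41.8% and 62.6% in the controls and 99.4%, 89.0% and 73.7% after irradiation by TPM. By reads it was 84.0% and 93.8% in the controls and 97.4% to 99.1% after irradiation, since TPM gives short transcripts more weight. *Lig1* had a high coding share throughout, at 96.6% and 95.6% in the controls and 97.5% to 99.2% after irradiation. Its 1053-base coding isoform *Lig1-212* took 27.5% and 19.5% of the gene's TPM in the controls and 7.60%, 0% and 11.9% after irradiation. *Aptx* differed from these genes, with 62.0% and 71.7% of its TPM in the controls and 78.3% to 80.8% after irradiation in *Aptx-205*, a transcript of 1378 bases annotated for nonsense-mediated decay. *Pms2* had a coding share of 18.5% to 36.2% by TPM and of 38.0% to 50.2% by reads over the 5 libraries.

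Single libraries weighed on some shares. In control replicate 2 the coding share was listed at 0% for *Mutyh*, *Neil2*, *Ddb2* and *Ercc8*, with 23, 76, 32 and 501 reads for these genes in all. Counted without control replicate 2, 16 of the 29 genes had a higher share in all irradiated libraries (55.2%, against 48.9% of all genes), and without control replicate 3, 21 did (72.4%, against 42.0%).

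**Figure D4:**
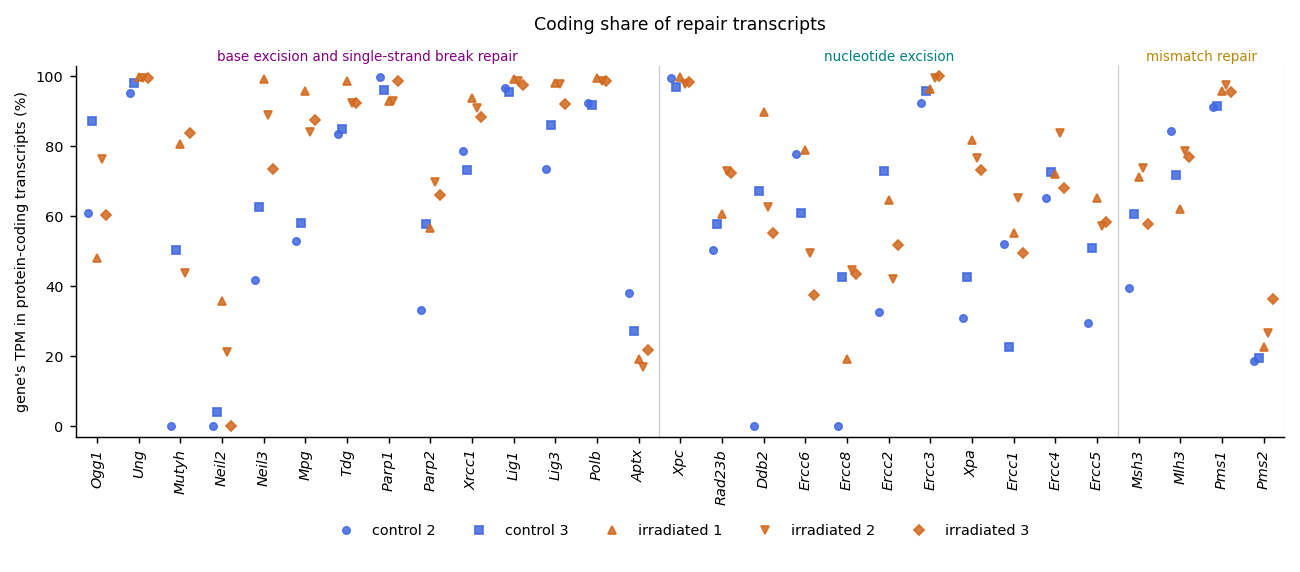
Share of each repair gene's TPM that lay in protein-coding transcripts, in percent, for the 29 genes with coding and other transcripts, by library (controls in blue, irradiated in orange). *Mpg*, *Xpa*, *Xrcc1* and *Neil3* show all irradiated libraries above both controls, and *Aptx* all below.

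The partners of these genes in the same pathways were followed as 46 further genes, all of them tested, of which 13 were higher (28.3%, against 12.7% of all genes) and 6 lower (13.0% in both). Their median transcript length was 2004 bases, and of all genes under 2000 bases 32.9% were higher and 2.32% lower. In nucleotide excision repair 7 of 17 were higher (41.2%) and 2 lower (11.8%). Of these, *Cetn2*, the small subunit of the XPC complex, went from 13.3 and 15.8 CPM in the controls to 31.8, 34.7 and 28.7 CPM after irradiation (log2 fold change 1.13, adjusted p = 0.00922 by edgeR). *Mnat1*, of the kinase part of TFIIH (0.87), and the single-stranded DNA binding subunits *Rpa2* (0.85) and *Rpa3* (1.28) were also higher, while *Rpa1*, the large subunit, was at −0.02 and did not pass. *Uvssa*, the partner of CSB and CSA at stalled polymerase, went from 36.8 and 26.5 CPM in the controls to 12.1, 12.2 and 15.0 CPM (−1.27, adjusted p = 0.00922 by edgeR), so that *Ercc6* and *Uvssa* were lower while *Ercc8* was not. *Cul4b*, a ubiquitin ligase scaffold that DDB1 docks to, was at −0.46 (adjusted p = 0.0406 by edgeR).

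Among 15 partners of mismatch repair and resynthesis, 5 were higher (33.3%) and 4 lower (26.7%). *Pole*, the catalytic subunit of polymerase epsilon, went from 301 and 199 CPM in the controls to 94.5, 78.1 and 91.2 CPM after irradiation (log2 fold change −1.51, adjusted p = 0.00825 by edgeR). *Exo1*, the nuclease of mismatch repair (−0.72), *Rfc1*, the large subunit of the clamp loader (−0.74), and *Pold1*, the catalytic subunit of polymerase delta (−0.60), were lower as well. *Pold4*, a small subunit of polymerase delta, went from 1.72 and 2.33 CPM to 9.76, 7.08 and 7.65 CPM (2.01, adjusted p = 0.00919 by edgeR), and the clamp *Pcna* (0.86), *Pole3* (0.72) and the small clamp loader subunit *Rfc3* (0.61) were higher. In polymerase delta, polymerase epsilon and the clamp loader the large subunit was thus lower. *Pold4*, *Pole3*, *Rfc3* and *Rfc4* were higher, while *Pold2*, *Pold3*, *Pole2*, *Pole4*, *Rfc2* and *Rfc5* did not pass. Mean transcript lengths of the 15 partners ran from 910 to 7092 bases. Of all genes tested, 32.9% of those under 2000 bases were higher, and 29.0% of those of 3500 bases and over were lower. Of the 12 partners in base excision repair *Dut*, which keeps uracil out of DNA, was higher (0.78, adjusted p = 0.0471 by edgeR), and neither *Alkbh2* nor *Alkbh3*, the direct reversal dioxygenases, passed. With the length offset only *Pole* passed among the 46 (−0.81, adjusted p = 0.0375 by edgeR), and *Rfc3* turned to −0.07 and *Rfc4* from 0.57 to −0.11. *Pole* was also the only one of the 46 to pass without control replicate 2 (−1.15, adjusted p = 0.0439 by edgeR), and the 19 called partners kept their sign there.

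Of 14 genes of DNA replication and proliferation, 3 were lower (21.4%, against 13.0% of all genes) and none was higher by edgeR, and the same 3 had an unadjusted p under 0.05 (41.0% of all genes). *Mki67* went from 3148 and 1555 CPM in the controls to 499, 291 and 397 CPM after irradiation (log2 fold change −2.57, adjusted p = 0.00825 by edgeR), *Top2a* was at −1.34 and *Rrm1* at −0.52, while the 6 *Mcm* genes ran from −0.09 to 0.30 and did not pass. With the length offset *Mki67* (−1.55) and *Top2a* (−0.97) stayed lower, and they were the only ones of the 14 to pass without control replicate 2 (−1.95 and −1.26). Of 6 genes known as p53 targets, *Cdkn1a* (1.12), *Gadd45a* (1.61) and *Bax* (1.18) were higher (3 of 6, against 12.7% of all genes), and *Mdm2*, *Ccng1* and *Sesn2* did not pass. With the length offset none of these 3 passed (adjusted p from 0.0845 to 0.224 by edgeR), nor did they without control replicate 2.

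Several repair genes are known to be transcribed with the cell cycle through E2F sites, so the promoter windows of RefSeq (250 bases before to 50 bases after a gene's start, on GRCm38.p6) were searched on both strands for TTTCCCGC, TTTCGCGC, TTTGCCGC and TTTGGCGC. Windows were found for 30 of the 35 genes, and 4 of these genes held a match. That is 13.3% of the 30, against 2.60% of all genes with a window and 4.59% of tested genes. Of all 32851 windows 2.26% held one, and of the 13629 windows of tested genes 3.79% did. The matched stretches are shown 5′ to 3′ on the strand of the gene, with the motif in capitals, because they fall in *Lig1*, which was lower, in *Nthl1*, which was higher, and in both MutS genes, which did not pass.

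Lig1, chr7:13278843-13278868, plus strand: ccaaagtgcGCGCGAAAtctgtgtgg

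Nthl1, chr17:24632541-24632566, plus strand: gcgcgcgccTTTCGCGCgcaggtcct

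Msh3, chr13:92355185-92355214, minus strand: gccgtcaagTTTGGCGCGAAAtcgcagccc

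Msh6, chr17:87975056-87975081, plus strand: cctcccgacTTTCCCGCcagcggcgg

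The *Msh3* stretch holds 2 matches on opposite strands that overlap, and lies upstream of the start of *Msh3*. In *Lig1* and *Msh6* the match lies downstream of the start of the window's transcript. These are matches of letters, and the genes that hold them went in both directions.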

How the data were processed

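Bulk RNA sequencing of KP1 cells gave 5 libraries, 2 control and 3 irradiated, grouped by their labels. The authors ran Salmon with default settings on mm10 (Salmon 0.8.2 and DESeq2 1.22.2 in the submitters' processing notes) and deposited, per transcript, the estimated counts of reads, which need not be whole and are not scaled for depth. The authors also deposited TPM, scaled for length to the same total in each library. The annotation release and the use of strand are not given in the sources used here. The differential expression of the study used DESeq2 with independent hypothesis weighting, which was not run here.

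Transcripts were matched to GENCODE M21 (112762 of 113116, or 99.69%), and estimated counts were summed to genes and rounded. The libraries of 21185956 to 31036317 reads leave low genes imprecise, and 3 reads was taken as the floor of detection. Floors cover counting error only. Differences were fitted with edgeR 4.0.16 (R 4.3.3; filterByExpr, TMM, quasi-likelihood test without a block) and Benjamini-Hochberg adjustment over 14106 genes. CPM serve differences between groups, and TPM levels between genes within a library. A gene's length is the mean over its transcripts, weighted by reads. The length and GC offsets were splines with 5 degrees of freedom, fitted per library. Overlaps came from the annotation and near-identical copies from blastn 2.17.0. Permutation tests used scipy 1.17.1.

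The 35 genes, the lists of partners and the tests were chosen with earlier results of these data known. Values per library are given for genes that passed, for those at the floor, for the highest and lowest by TPM in each pathway and for *Ddb2*, *Xpc* and *Mgmt*. Partners are named where they passed, at most the 4 smallest p per list and direction. Other genes named were chosen after their values were seen, and some items are not reported here. The alternatives were DESeq2 1.42.0, other scalings and filters, offsets for length, effective length or GC content, a replicate block, coding transcripts alone and each replicate left out. The fits were tested on simulated counts.

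Replicate numbers 2 and 3 occur in both groups. The log2 ratio of replicate 2 to 3 correlated across genes at −0.196 between the groups, so the numbers were not taken as pairs.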

Additional observations from a re-analysis of the deposited data

How the results depend on the processing

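With all libraries, 3 repair genes were higher and 4 lower, and 1786 and 1827 of all genes. With the length offset these became 0 and 2, and 215 and 306. At the study's thresholds they were 0 and 0, and 230 and 268. The offset for effective length left 2 repair genes higher and 3 lower, and 1470 and 1389 of 14106 genes. The GC offset left 1 repair gene higher and 4 lower, and 1495 and 1839 of 14106 genes. Counting protein-coding transcripts alone gave 5 higher and 5 lower, and 1599 and 1794 of 13250 genes. Leaving out 1 library at a time gave 0 to 5 repair genes higher and 0 to 4 lower, and 95 to 2232 and 175 to 1977 of all genes, the lowest without control replicate 2. For the coding share, 15 to 21 of the 29 repair genes were above the controls kept on leaving out 1 library. Of all such genes 48.9% were so without control replicate 2 and 42.0% without control replicate 3. The cause was not tested, except that a left-out library leaves fewer samples. DESeq2, the other scalings and the filters on low counts kept the counts within 1.5 times.

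With the replicate number as a block, 0 repair genes were higher and 0 lower, and 602 and 494 of all genes. With the block and the length offset together 0 were higher and 1 lower, and 150 and 224 of all genes. The block gives irradiated replicate 1 no weight. A crossed pairing of numbers 2 and 3, chosen after seeing the data, gave 3 repair genes higher and 7 lower, and 3026 and 2670 of all genes. With the length offset the log2 fold change of *Rfc3* turned to −0.066 and that of *Rfc4* to −0.11, and with the block and length offset together they were −0.15 and −0.16. None of the 7 repair genes that passed changed sign under any alternative run. The coding share was also taken by reads and over transcripts of at least 500 bases, both chosen after seeing the data. By reads it was above both controls in 15 repair genes (51.7%, against 32.1% of all such genes). Over transcripts of at least 500 bases it was so in 13 (44.8%, against 28.3%). By TPM it was so in 14 (48.3%, against 28.6%). Depth limits *Mgmt*, *Ddb2*, *Neil2* and *Mutyh* most, with 117 reads or fewer per library.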
